A study of Mus musculus with 16 samples.

Results

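Tumour-bearing mouse lungs irradiated with 8 Gy were compared with those irradiated with 4 Gy, in bulk RNA libraries, over both antibodies given with the radiation. Of the 16 libraries in the study, 11 entered this difference. The 8 Gy side holds 3 libraries with control IgG and 3 with anti-PD-1, and the 4 Gy side holds 2 with IgG and 3 with anti-PD-1. The remaining 5 libraries, 3 with IgG and 2 with anti-PD-1, received 0 Gy. They entered the fit only through the shared estimate of the spread, and their levels are given as a reference. All mice were C57BL/6 and carried HKP1, a mouse lung adenocarcinoma line. Whole lungs were taken 24 to 48 h after irradiation, and RNA was made from pools of 3 to 4 mice. Nothing in the labels states that mice differed between the pools of 1 group. The p-values thus cover the spread from pool to pool, which may be technical in part. A pool holds tumour, lung and infiltrating immune cells together. In such bulk RNA, fewer cells of a type and less RNA per cell cannot be told apart. The difference was computed within each antibody and then averaged, so that IgG and anti-PD-1 count equally.

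Ionising radiation breaks DNA and activates p53, which drives cell cycle arrest and death genes such as Cdkn1a, and it can also induce interferon and cytokine genes. In lung, irradiation is known to injure airway and alveolar epithelium and the capillary endothelium, and it draws in myeloid cells. PD-1 is an inhibitory receptor of activated T cells, and antibodies to it are given with radiation to sustain T cell responses against a tumour. The comparison of 8 with 4 Gy asks how a higher level of exposure differs from a lower one when both groups are irradiated.

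Expression was deposited by the authors as CPM, read counts scaled to the size of each library, and differences are given as log2(CPM + 0.5) at 8 Gy minus 4 Gy. A gene was called when its Benjamini-Hochberg adjusted p over all 17546 genes tested was under 0.05 in limma. The step between low CPM values put 1 read at 0.0173 to 0.0298 CPM at 8 Gy and at 0.0155 to 0.0418 CPM at 4 Gy, which implies about 33500000 to 58000000 reads a library and about 23900000 to 64500000. Anti-PD-1 replicates 2 and 3 at 4 Gy stood apart from the other 14 libraries. Their scores on the first principal component were -81.5 and -98.3, against -46.8 to 51.9 elsewhere. The score of -46.8 was that of anti-PD-1 replicate 1 at 4 Gy, so the libraries of this group had the lowest scores. Replicates 2 and 3 also had 6108 and 5330 genes without a read, against 2285 to 3857 in the other 9 libraries at 4 and 8 Gy. Results are therefore given with and without these 2 outlying libraries. Leaving them out leaves 1 anti-PD-1 library at 4 Gy, replicate 1, which is then assumed to vary like the other groups. Library weights estimated in 1 alternative, by a method chosen after seeing the data, gave replicate 1 the lowest weight of all (0.306). Replicates 2 and 3 had weights of 1.52 and 0.717. The scores and the weights thus single out different libraries of this group. Mitochondrially encoded genes took 1.53 to 7.53% of CPM at 8 Gy and 3.76 to 5.91% at 4 Gy (exact permutation within antibody, two-sided, p = 0.900). Haemoglobin genes took 0.639 to 2.20% and 0.522 to 2.99% (p = 0.965 in the same exact permutation test). Over the 4 such library quantities tested, every adjusted p was 0.965, and the smallest p that this design allows is 0.005. The S numbers in the library titles, whose meaning the labels do not give, are lower for all 4 Gy libraries than for all 8 Gy libraries, so what they stand for and dose cannot be told apart. Of the 202 genes picked by the naming rule or added to it, 68 overlap an annotated gene on the opposite strand. Whether strand was used in counting is not given in the sources used here, so reads of such pairs cannot be told apart. Among the genes below, this holds for Mfap4 (with Mapk7), Nos3 (Atg9b), Nusap1 (Oip5), Prc1 (Rccd1), Gzmk (Esm1), Cxcr6 (Fyco1), Itga7 (Mettl7b) and Rbpjl (Matn4), and for others that overlap a predicted or antisense gene, such as Il1b, Prox1, Hopx, Notch3, Hk2 and Cdkn1a.

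Most listed genes of the lung's own epithelium and endothelium, and part of the mesenchymal genes, were lower at 8 Gy than at 4 Gy. Mitosis, DNA repair, glycolysis and T cell checkpoint genes were higher at 8 Gy than at 4 Gy. Within each antibody, mitosis, DNA replication and repair genes were called higher with anti-PD-1 alone. Checkpoint genes were called higher for 5 of 21 with IgG and 3 with anti-PD-1, beside 1.64% and 24.4% of all genes. In both alveolar lists the mean level of every 4 Gy library also lay above that of every 0 Gy library. The contrast is thus not a measure of loss from the 0 Gy level. Of the 17546 genes, 2988 rose (17%) and 3023 fell (17.2%), so 34.3% were called. The falls were deeper than the rises. Among called genes the median log2 difference was 0.51 for rises and -0.90 for falls. A fall of more than 2-fold was seen for 1315 called genes and a rise of that size for 125. More than 4-fold separated 237 called falls and 3 called rises. Every 8 Gy library stood above every 4 Gy library for 1064 genes (6.06%) and below for 1158 (6.6%). The median log2 difference of all genes tested was 0.06.

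Without the 2 outlying libraries 2200 genes were called (12.5%), of which 451 rose (2.57%) and 1749 fell (9.97%). Of these, 430 of the rises and 1690 of the falls were also called in the full set. No gene called in the full set had the opposite sign there. The count of falls moved to 1966 without IgG replicate 1 at 4 Gy. The count of rises went to 1604 and 1158 without IgG replicates 1 and 2 at 4 Gy, to 1955 without IgG replicate 3 at 8 Gy, to 1779 without anti-PD-1 replicate 3 at 4 Gy and to 1712 without anti-PD-1 replicate 1 at 8 Gy.

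**Figure D1:**
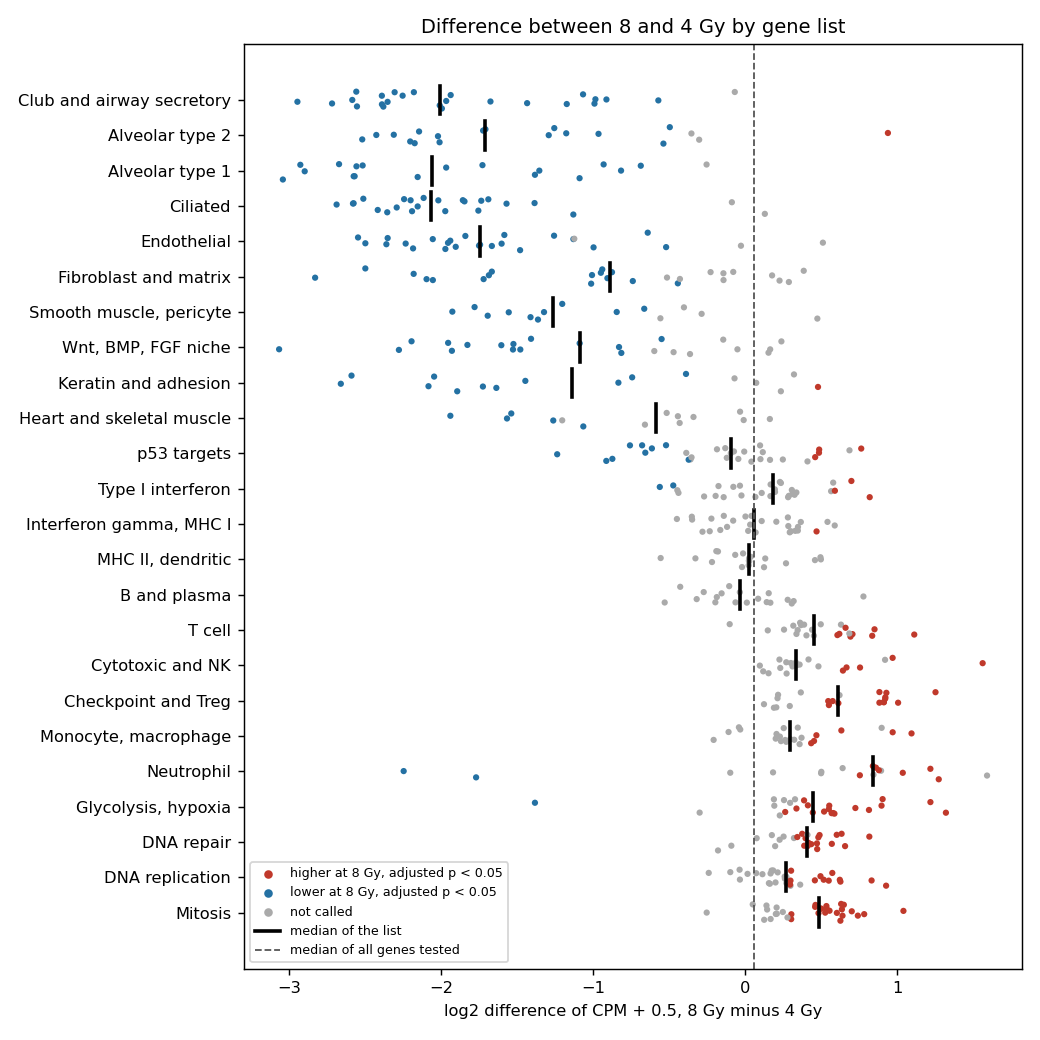
Log2 difference (8 Gy minus 4 Gy, averaged over both antibodies, horizontal axis) of each tested gene in 24 gene lists, 1 dot a gene, with a bar at each list's median and a dashed line at the median of all genes tested (0.06). The club, alveolar, ciliated and endothelial lists lie far to the left, and the mitosis, glycolysis and checkpoint lists lie to the right by smaller amounts.

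Airway secretory genes fell in nearly the whole list. Of 25 club cell and airway secretory genes tested, 24 fell, with a list median of -2.01, against 17.2% of all genes. The remaining gene, Cdc42ep3, differed by -0.07. The lists here and below were chosen with earlier results of these data known, so such shares describe the lists and are not a test. Counts without the 2 outlying libraries stand beside the smaller shares called in that set. Scgb1a1, the secretoglobin that defines club cells (chr19:9083636-9087958, mm10, minus strand), stood at 5156 and 3712 CPM with IgG and 6866, 6484 and 12303 CPM with anti-PD-1 at 4 Gy. At 8 Gy it ran from 414 to 3891 CPM (median 667). The highest 8 Gy library, anti-PD-1 replicate 2, lay just above the lowest 4 Gy library, and the other 5 lay below all of them. The 0 Gy libraries averaged 2512 ± 1224 CPM (SD, n = 5), between both irradiated groups. Cbr2, a carbonyl reductase abundant in club cells, fell by 2.94 on the log2 scale (SE 0.53, limma adjusted p = 0.00153), and the cytochrome P450 gene Cyp2a5 fell by 2.72.

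Hp, which encodes the haemoglobin-binding protein haptoglobin and is made by airway cells as well as liver, separated the doses without overlap. It read 465 and 502 CPM with IgG and 638, 747 and 909 CPM with anti-PD-1 at 4 Gy and ran from 104 to 263 CPM (median 140.3) at 8 Gy. Its log2 difference was -1.99 ± 0.22 (SE), adjusted p = 0.000166 by limma. Scgb3a2, another airway secretoglobin and a gene chosen after its values were seen, gave -2.55 ± 0.39 (SE), adjusted p = 0.000727. The summed level of the list was 1355 to 7078 CPM at 8 Gy and 7236 to 24877 CPM at 4 Gy, so the ranges did not meet. The count was 22 without the 2 outlying libraries, and leaving out any 1 of the 16 libraries left 22 to 24.

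Alveolar genes fell as well, in both cell types that line the air sacs, beside 17.2% of all genes lower and 17% higher. Of 19 type 2 cell genes, which make surfactant, 16 fell and 1 rose (median -1.71), and of 18 type 1 cell genes, which form the thin gas-exchange surface, 17 fell (median -2.06). Sftpc, the surfactant protein that marks type 2 cells, read 3332 and 8848 CPM with IgG and 6450.0, 6878 and 7161 CPM with anti-PD-1 at 4 Gy. All 6 libraries at 8 Gy were lower, from 724 to 1834 CPM (median 975), while the 0 Gy libraries averaged 1990.5 ± 1162 CPM (SD, n = 5). The log2 difference was -2.52 ± 0.42 (SE), adjusted p = 0.00111 by limma. Lpcat1, which remodels surfactant phospholipids, had a smaller but tight difference of -1.25 ± 0.10 (SE), adjusted p = 3.91e-05. Its 4 Gy libraries read 175 and 206 CPM with IgG and 179.9, 199.8 and 217 CPM with anti-PD-1. At 8 Gy it ran from 65.3 to 107 CPM (median 77.6), below every 4 Gy library and below the 0 Gy mean of 121 CPM. Nkx2-1, the transcription factor that specifies lung epithelium, and Sftpb were chosen after their values were seen. They fell by 2.43 and 2.31. Cd36 and Ctsh, which macrophages also express, differed by -0.35 and -0.30 and were not called.

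Among type 1 genes, Ager, the receptor for advanced glycation end products (chr17:34597862-34600936, plus strand), read 350.2 and 700.1 CPM with IgG and 597, 628 and 584 CPM with anti-PD-1 at 4 Gy. It ran from 37.1 to 194 CPM (median 56.4) at 8 Gy, again below every 4 Gy library, and averaged 173 ± 68.9 CPM (SD, n = 5) at 0 Gy. The difference was -2.92 ± 0.32 (SE), adjusted p = 0.00016 in limma. Scnn1g, a subunit of the epithelial sodium channel, gave -3.04 ± 0.31 (SE), adjusted p = 0.000128. Emp2, a membrane protein, fell by 1.09, Hopx by 1.35 and Spock2 by 2.57, so the falls within the list differed widely in size. Lmo7 was the type 1 gene not called (-0.25). Leaving out the 2 outlying libraries left 14 type 2 and 16 type 1 genes lower, and Ager at -2.92, adjusted p = 0.00479 in limma. The type 2 gene that rose was Il33, described with the cytokines.

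Genes of motile cilia fell in 22 of 24 tested, with a median of -2.07, beside 17.2% of all genes. Foxj1, the transcription factor that starts motile ciliogenesis, read 50.5 and 28.4 CPM with IgG and 62.8, 82.8 and 112 CPM with anti-PD-1 at 4 Gy. Its 8 Gy values ran from 4.55 to 23.7 CPM (median 6.42). The 8 Gy libraries lay below every 4 Gy library, with IgG lower than anti-PD-1 throughout. The log2 difference was -2.58 ± 0.34 (SE), adjusted p = 0.000334 by limma, and the 0 Gy mean was 22.2 ± 8.38 CPM (SD, n = 5). The axonemal dynein Dnah9 fell by 2.42 and the cilium assembly gene Ccdc40 by 2.29. Tubb4b, a tubulin used in many cells, and Rfx3, a ciliogenesis factor with wider expression, were not called (-0.09 and 0.13). The list still had 19 falls without the 2 outlying libraries. Mcidas and Spag6 were too low to be tested.

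Vascular genes fell with the epithelium. Of 26 blood endothelial genes, 23 fell (median -1.75), beside 17.2% of all genes. The 3 not called were Calcrl (-1.12), Bmpr2 (-0.03) and Ednrb (0.51). Nos3, the endothelial nitric oxide synthase, had a difference of -1.97 ± 0.27 (SE), adjusted p = 0.000439, and Aplnr, the apelin receptor, one of -1.84 ± 0.23 (SE), adjusted p = 0.000229. Gpihbp1, which anchors lipoprotein lipase on capillaries, fell by 2.05. Kdr, the main VEGF receptor and a gene chosen after its values were seen, read 42.8 and 45.9 CPM with IgG and 70.9, 51.9 and 41.03 CPM with anti-PD-1 at 4 Gy and ran from 8.39 to 24 CPM (median 17.1) at 8 Gy, all of it lower. Its difference was -1.60 ± 0.39 (SE), adjusted p = 0.00782. Pecam1, the junctional adhesion molecule CD31, read 84.7 and 110.5 CPM with IgG and 171, 162 and 126 CPM with anti-PD-1 at 4 Gy and ran from 31.7 to 78.2 CPM (median 52.1) at 8 Gy. Its difference of -1.26 ± 0.35 (SE), adjusted p = 0.0145 lost its call without the 2 outlying libraries (adjusted p = 0.0728) and without IgG replicate 2 at 4 Gy (0.062, limma). The list count was 18 of 26 without those 2 libraries.

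Of 7 lymphatic genes 4 fell and 1 rose, beside 17.2% and 17% of all genes. Ccl21a is a chemokine with which lymphatic vessels draw dendritic cells and T cells. It read 21.1 and 28.8 CPM with IgG and 16.8, 17.1 and 14.9 CPM with anti-PD-1 at 4 Gy and ran from 1.51 to 5.00 CPM (median 1.66) at 8 Gy, with no overlap. The difference was -2.89 ± 0.22 (SE), adjusted p = 3.31e-05 by limma. The Ccl21 genes are near-identical copies, and an annotated gene lies on the opposite strand, so the reads of this gene cannot be assigned with certainty. Flt4, the VEGF receptor of lymphatic endothelium, fell by 0.87, Pdpn by 0.82 and Reln by 0.56, while Prox1, the transcription factor of lymphatic identity, rose by 0.79. The call of Prox1 was lost without the 2 outlying libraries and without IgG replicate 2 at 4 Gy (adjusted p of up to 0.0996 in limma). The count of lymphatic falls went from 4 to 2 without IgG replicate 1 or 2 at 4 Gy, without anti-PD-1 replicate 2 at 4 Gy and without anti-PD-1 replicate 1 at 8 Gy.

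**Figure D2:**
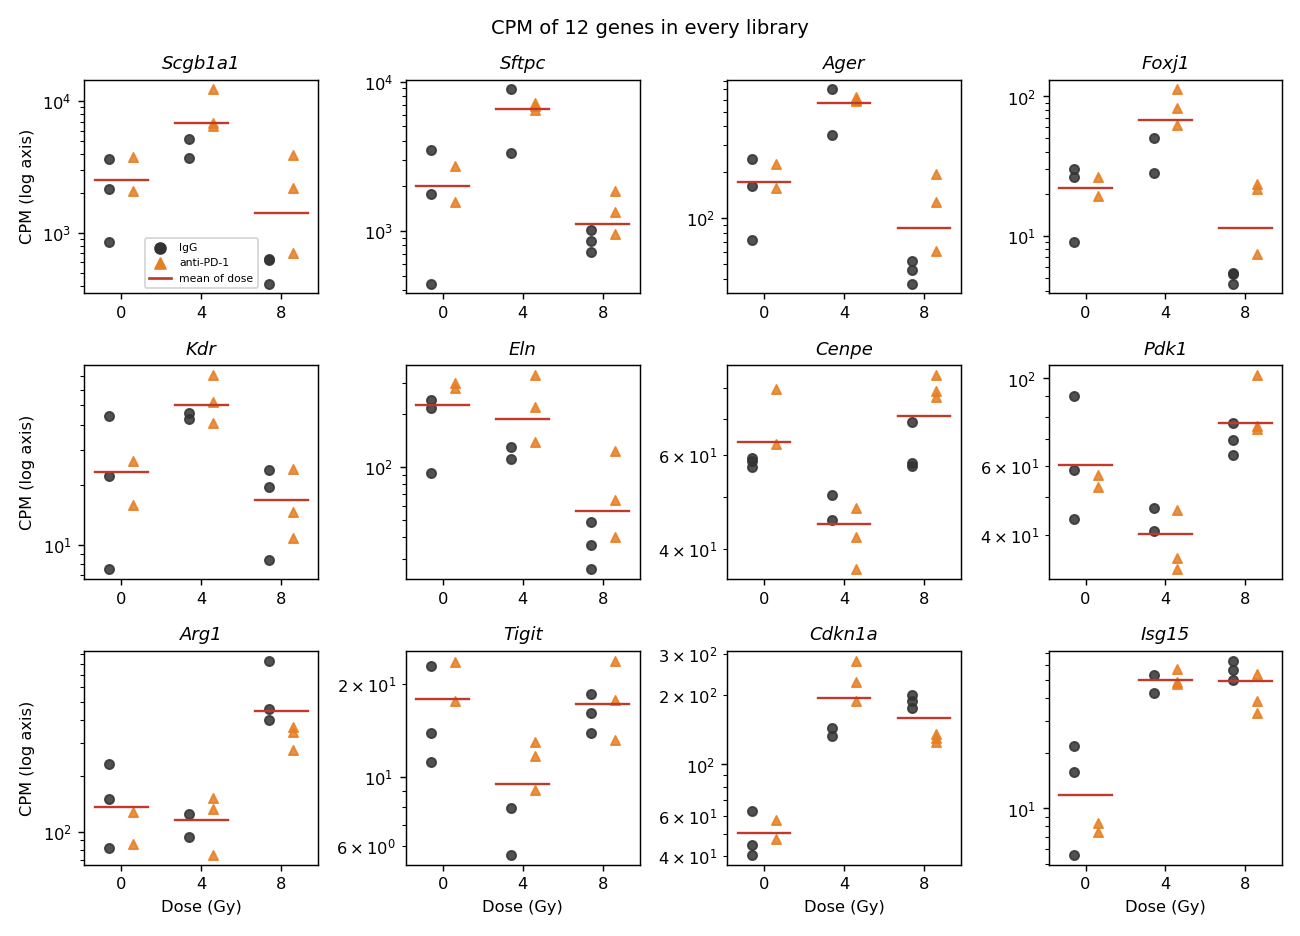
CPM (log axis) of 12 genes by dose, with 1 symbol a library (circles IgG, triangles anti-PD-1) and a line at the mean of each dose. Sftpc, Ager, Foxj1 and Kdr lie lower in all 6 libraries at 8 Gy than in all 5 at 4 Gy, and Cenpe, Pdk1, Arg1 and Tigit lie higher in all 6.

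Mesenchymal genes fell in part. Of 26 fibroblast and matrix genes 16 fell (median -0.89), beside 17.2% of all genes. Of 14 smooth muscle and pericyte genes 10 fell (median -1.26). The fibroblast and matrix list summed to 4551 to 6654 CPM at 8 Gy and 4840 to 6322 CPM at 4 Gy. These ranges overlapped. Pdgfrb, the growth factor receptor of pericytes, differed by -1.78 ± 0.19 (SE), adjusted p = 0.000141, and Notch3, the receptor that maintains vascular smooth muscle, by -1.93 ± 0.17 (SE), adjusted p = 8.42e-05. Notch3 read 13.9 and 16.3 CPM with IgG and 15.6, 13.1 and 13.1 CPM with anti-PD-1 at 4 Gy. It ran from 2.04 to 5.41 CPM (median 3.28) at 8 Gy, so the groups were far apart. Mfap4, an elastic fibre protein, fell by 2.83 and Fbln5, which assembles such fibres, by 2.09. Elastin itself, Eln, chosen after its values were seen, fell by 1.68, with anti-PD-1 replicate 2 at 8 Gy above the lowest 4 Gy library. Of the fibrillar collagens, Col1a1 (-0.74) and Col5a1 (-0.44) fell, but neither was called without the 2 outlying libraries (adjusted p = 0.253 and 0.335 in limma). Col1a1 was also lost without IgG replicate 1 or 2 at 4 Gy, IgG replicate 3 at 8 Gy, anti-PD-1 replicate 2 or 3 at 4 Gy or anti-PD-1 replicate 1 at 8 Gy. Col3a1 (-0.14) and Col1a2 (-0.23) were not called, nor were the proteoglycans Dcn (0.29) and Lum (0.23) or fibronectin, Fn1 (0.39). The lists' counts were 11 and 7 without the 2 outlying libraries.

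Among 23 genes of the Wnt, BMP and FGF signals that pattern and maintain lung tissue, 15 fell (median -1.09), beside 17.2% of all genes. They included Wnt3a (-2.19), Bmp5 (-1.60) and the lung mesenchyme transcription factors Tbx2 (-2.28) and Tbx4 (-1.83). A filter of 5 CPM in 5 libraries, which removes low genes, left 9. Of the 16 epithelial adhesion and keratin genes, which tumour cells can also express, 11 fell. Cldn3 fell by 2.66, Cldn7 by 2.59 and Epcam by 1.72, all tight junction or adhesion proteins. The simple keratins Krt8 (0.24), Krt18 (0.07) and Krt19 (0.32) and the cadherin Cdh1 (-0.07) were not called. The transcription factor gene Ehf rose by 0.48, a call that was lost in 18 of 29 alternatives, among them that without the 2 outlying libraries (adjusted p = 0.242 in limma).

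The genes with the largest falls by the naming rule included Rbpjl and Fgfr4. Rbpjl, a transcription factor, gave -3.65 ± 0.37 (SE), adjusted p = 0.000108 in limma, while Matn4 on its opposite strand gave -2.87. Fgfr4, a fibroblast growth factor receptor of epithelium, gave -3.06 ± 0.47 (SE), adjusted p = 0.000739. Among the falls with the lowest p were Cldn18, a claudin of alveolar epithelium (-1.89 ± 0.17 (SE), adjusted p = 8.42e-05), and Ltbp2 and Itga7, a matrix protein and a muscle integrin, at -1.83 and -1.62.

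**Figure D3:**
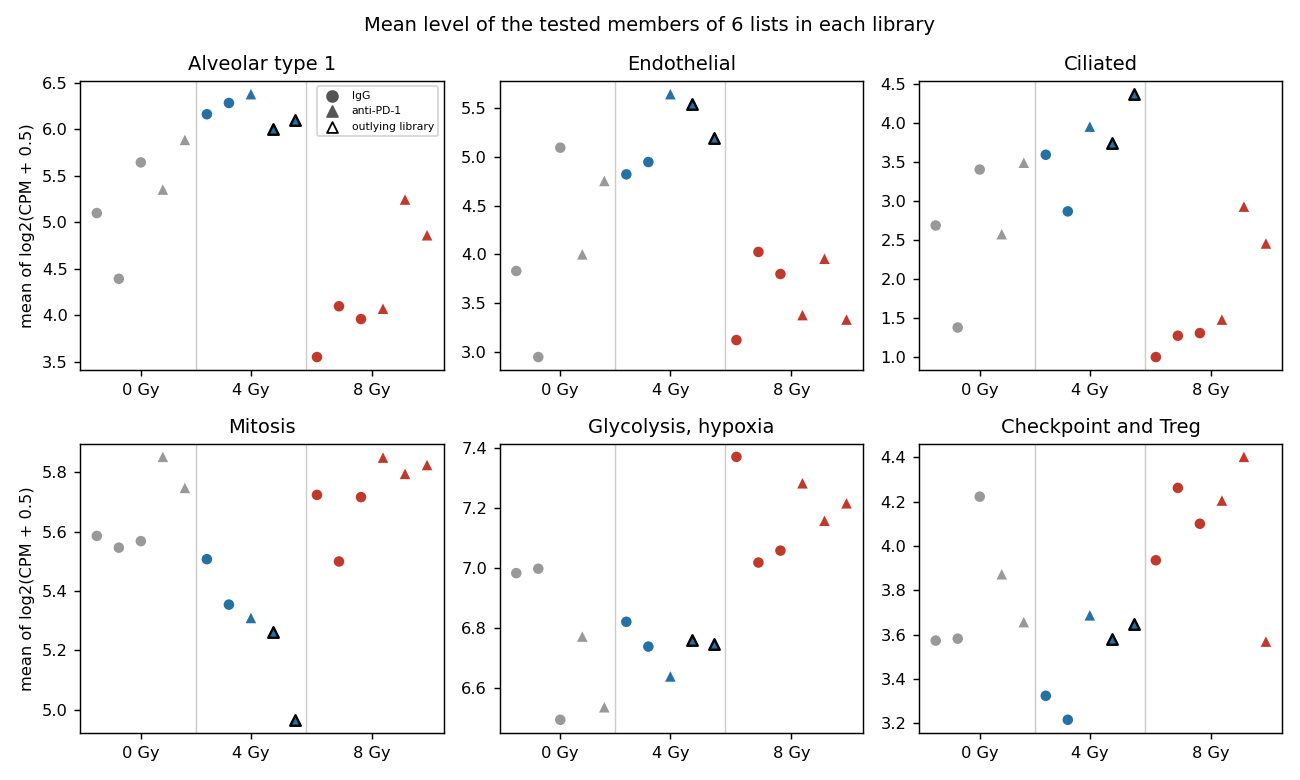
Mean log2(CPM + 0.5) of the tested genes of 6 lists in each library, grouped by dose and antibody, with the 2 outlying libraries edged in black. For alveolar type 1 and endothelial genes all 8 Gy libraries lie below all 4 Gy libraries, and anti-PD-1 replicate 2 is the highest 8 Gy library for type 1 genes.

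The 8 Gy libraries did not fall by equal amounts. Among the 86 epithelial genes of the club, type 2, type 1 and ciliated lists, anti-PD-1 replicate 2 was the highest 8 Gy library for 64, and IgG replicate 1 the lowest for 42. The mean log2 level of type 1 genes ran from 3.55 to 5.24 over the 8 Gy libraries. It ran from 6.00 to 6.38 over the 4 Gy libraries and from 4.39 to 5.89 over the 0 Gy libraries. Type 2 genes ran from 5.79 to 6.93 at 0 Gy, 7.24 to 8.01 at 4 Gy and 5.89 to 6.47 at 8 Gy. For club, ciliated and endothelial genes the 0 and 4 Gy ranges overlapped. Of the 86 genes, 79 fell and 1 rose, with a median of -2.0. Every 8 Gy library lay below every 4 Gy library for 48 of them, beside 6.6% of all genes. With the 2 outlying libraries left out 71 fell and 1 rose.

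Markers of other tissues and of tumour cells were measured beside these falls. Over all genes tested 17% rose and 17.2% fell, beside which the counts below stand. Of 14 striated muscle genes, 5 fell. They were Myl7, Myl4 and Sln, which are strongest in the atria, and the cardiac genes Myh6 and Actc1. The list summed to 23.9 to 45.7 CPM at 8 Gy and 30.95 to 120.5 CPM at 4 Gy. With IgG 0 of the 14 were called lower by limma (2 at an unadjusted p under 0.05) and with anti-PD-1 8 were. These counts stand beside 5.94% and 17.5% of all genes, and the medians were 0.02 and -1.31. Of 7 adipose genes 5 fell and 1 rose, with sums of 16.2 to 26.4 CPM at 8 Gy and 22.3 to 44.5 CPM at 4 Gy. The adipose falls numbered 2 without the 2 outlying libraries or without IgG replicate 1 at 4 Gy, and 3 without IgG replicate 2 or anti-PD-1 replicate 3 at 4 Gy, IgG replicate 2 or 3 at 8 Gy or any 1 of the anti-PD-1 libraries at 8 Gy. Of 20 tumour dedifferentiation genes 2 rose, Vim (0.39) and Igf2bp2 (0.40), with a list median of 0.22, -0.05 with IgG and 0.43 with anti-PD-1. With the 2 outlying libraries left out 0 of these rose in limma (2 higher at an unadjusted p under 0.05) and 1 fell. These rises numbered 5 without IgG replicate 2 or 3 at 0 Gy, 6 without anti-PD-1 replicate 1 at 4 Gy, and 1 without IgG replicate 1 or 2 at 4 Gy, IgG replicate 2 at 8 Gy, anti-PD-1 replicate 3 at 4 Gy or anti-PD-1 replicate 1 or 3 at 8 Gy. A red fluorescent protein row in the table ranged from 8.36 to 20.9 CPM at 8 Gy and from 6.93 to 15.3 CPM at 4 Gy (RFP, log2 difference 0.03 ± 0.30 (SE), adjusted p = 0.947). A tamoxifen-inducible Cre row ranged from 24.5 to 34.7 CPM and from 6.80 to 23.9 CPM (CREERT2, 0.95 ± 0.24 (SE), adjusted p = 0.00865), and was not called without the 2 outlying libraries (adjusted p = 0.0806). The labels do not say which cells carry these 2 constructs. Of 14 housekeeping genes 5 rose (35.7%), with a list median of 0.24, and of 0.25 without the 2 outlying libraries. The DNA replication list below had a like share and median (37.5% and 0.27), as had the macrophage list (26.1% and 0.30). The part of these tissues in the falls of lung genes was not tested.

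Genes of cell division were higher at 8 Gy. Of 32 mitosis genes 21 rose (median 0.49, against 17% of all genes), and the other 11 did not pass the test. Of 32 DNA replication genes 12 rose (median 0.27). Cenpe, the kinesin that attaches chromosomes to the spindle (chr3:135212537-135273611, plus strand), read 50.4 and 45.2 CPM with IgG and 47.7, 42.1 and 36.6 CPM with anti-PD-1 at 4 Gy. It ran from 57.2 to 84.6 CPM (median 73) at 8 Gy, above every 4 Gy library. The 0 Gy libraries averaged 63.4 ± 9.33 CPM (SD, n = 5), nearer to the 8 Gy level. The difference was 0.64 ± 0.10 (SE), adjusted p = 0.000658 by limma. Tpx2, a spindle assembly factor, gave 0.54 ± 0.08 (SE), adjusted p = 0.00079, and Nusap1, a microtubule-binding protein, 0.70 ± 0.11 (SE), adjusted p = 0.000975. Among replication genes, Pola1, the catalytic subunit of DNA polymerase alpha, rose by 0.93, the ribonucleotide reductase subunit Rrm1 by 0.57 and the helicase subunits Mcm4 and Mcm6 by 0.55 and 0.52. Mki67, the common proliferation marker, read 222 and 194 CPM with IgG and 214, 178 and 138 CPM with anti-PD-1 at 4 Gy and ran from 217 to 313 CPM (median 263) at 8 Gy. Its difference of 0.46 ± 0.11 (SE), adjusted p = 0.00718 was not called without the 2 outlying libraries (adjusted p = 0.071).

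Fewer of these rises were called without the 2 outlying libraries, 14 of the 32 mitosis genes and 6 of the 32 replication genes, beside 2.57% of all genes. Anti-PD-1 replicate 3 at 4 Gy was the lowest 4 Gy library for 23 of the 32 mitosis genes, and IgG replicate 1 the highest for 20. The replication count went to 7 without IgG replicate 2 at 4 Gy.

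Mitosis genes are commonly controlled through a CHR element and CCAAT boxes close to the transcription start, and both were searched in the RefSeq promoters (GRCm38.p6, 250 bases before to 50 after the start, either strand). The CHR letters, TTTGAA or TTCGAA, were present in 75% of 28 mitosis promoter windows and in 19.2% of all 32851 windows. CCAAT was present in 75% and 37.4%. Windows were available for 27 of the 32 genes, and 20 of the 27 held each motif. Of the 18 genes that rose and had a window, 13 held each motif, a share close to that of the list. A match describes the letters in the window and not a bound factor. Prc1, which bundles the central spindle, and Top2a, a DNA topoisomerase of dividing cells chosen after its values were seen, are shown because both rose and hold both motifs. The 250 bases before the start are printed 5′ to 3′ on the gene's strand, with CHR and CCAAT matches on either strand in capitals. Prc1 is at chr7:80294226-80294475 (plus strand) and Top2a at chr11:99024190-99024439 (minus strand).
Prc1: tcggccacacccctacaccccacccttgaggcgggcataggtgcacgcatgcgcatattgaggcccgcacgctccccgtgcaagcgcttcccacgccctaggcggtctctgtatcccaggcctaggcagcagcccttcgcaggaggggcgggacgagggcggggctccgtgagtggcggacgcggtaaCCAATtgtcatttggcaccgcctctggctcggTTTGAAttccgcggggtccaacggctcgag
Top2a: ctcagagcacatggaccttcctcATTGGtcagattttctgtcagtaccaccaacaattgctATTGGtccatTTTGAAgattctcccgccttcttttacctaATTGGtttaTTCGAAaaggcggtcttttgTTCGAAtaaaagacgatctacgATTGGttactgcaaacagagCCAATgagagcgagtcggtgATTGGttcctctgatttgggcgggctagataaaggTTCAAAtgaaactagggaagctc
In these windows Prc1 had 1 CHR and 1 CCAAT match, and Top2a had 4 and 6. Prc1 read 60.8 and 55.7 CPM with IgG and 46.98, 49.7 and 43.3 CPM with anti-PD-1 at 4 Gy. It ran from 60.9 to 88.2 CPM (median 74.2) at 8 Gy, above every 4 Gy library, with a difference of 0.50 ± 0.09 (SE), adjusted p = 0.00136 in limma. Top2a averaged 277 ± 36.2 CPM (SD, n = 6) at 8 Gy and 197 ± 32.5 CPM (SD, n = 5) at 4 Gy, and its difference was 0.46 ± 0.09 (SE), adjusted p = 0.00235 in limma.

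DNA repair genes rose while the p53 targets were split. Of 25 repair genes 16 rose (median 0.41), among them Rad50, of the complex that senses double-strand breaks (0.47 ± 0.09 (SE), adjusted p = 0.00254), and Lig4, the ligase of end joining (0.82 ± 0.17 (SE), adjusted p = 0.00331). With IgG 0 of the 25 were called higher by limma (2 at an unadjusted p under 0.05) and with anti-PD-1 20 were. These counts stand beside 1.64% and 24.4% of all genes, and the medians were 0.13 and 0.71. The count of 16 over both antibodies rested on single libraries. It was 3 without the 2 outlying libraries and 4 without IgG replicate 2 at 4 Gy. Of 31 p53 target genes 4 rose and 9 fell (median -0.09), which is 12.9% and 29%, beside 17% and 17.2% of all genes. The rises were Ccng1 (0.46), Ckap2 (0.49), Rrm2b (0.49) and Pmaip1 (0.76), of which Pmaip1 encodes the death protein Noxa. The falls included the death genes Bbc3 (-0.66), Bax (-0.52) and Perp (-0.37), and also Phlda3 (-0.61), Gdf15 (-0.91) and the detoxifying enzymes Dcxr (-1.24) and Ephx1 (-0.76). Bax and Gdf15 were not called without the 2 outlying libraries (adjusted p = 0.066 and 0.147 in limma), nor Gdf15 without IgG replicate 2 at 4 Gy (0.0679) or after quantile normalization (0.0576). Without the 2 outlying libraries 1 p53 target rose and 5 fell. The count of rises was 2 without either IgG library at 4 Gy, IgG replicate 2 or 3 at 8 Gy, anti-PD-1 replicate 3 at 4 Gy or anti-PD-1 replicate 1 at 8 Gy.

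Cdkn1a, the gene of the cyclin-dependent kinase inhibitor p21 (chr17:29090976-29100727, plus strand), read above the 0 Gy mean of 50.7 ± 9.22 CPM (SD, n = 5) in all 11 libraries at 4 and 8 Gy, but it did not pass the test between them. It read 132 and 144 CPM with IgG and 189, 228 and 281 CPM with anti-PD-1 at 4 Gy. At 8 Gy it read 189, 201 and 176 CPM with IgG and 125, 136 and 129.9 CPM with anti-PD-1. With IgG all 3 libraries at 8 Gy lay above both at 4 Gy, and with anti-PD-1 all 3 lay below, so the average was -0.18 ± 0.13 (SE), adjusted p = 0.262 (limma). Trp53 itself gave -0.13 (adjusted p = 0.518) and Mdm2, the p53 ubiquitin ligase and direct target, -0.01 (adjusted p = 0.975).

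Glycolysis and hypoxia genes rose. Of 25 tested, 17 rose and 1 fell (median 0.45), beside 17% and 17.2% of all genes. Pdk1, a pyruvate dehydrogenase kinase, read 46.9 and 40.97 CPM with IgG and 46.2, 34.9 and 32.7 CPM with anti-PD-1 at 4 Gy. All 6 libraries at 8 Gy were higher, from 64.01 to 102 CPM (median 75.1), with a difference of 0.90 ± 0.16 (SE), adjusted p = 0.00162 by limma. Egln3, an oxygen sensor that is itself induced by hypoxia, gave 1.32 ± 0.24 (SE), adjusted p = 0.00151, and the adenylate kinase Ak4 1.31 ± 0.22 (SE), adjusted p = 0.00103. Ldha, which makes lactate, rose by 0.52. The glucose transporter Slc2a1 (0.26, adjusted p = 0.183) and the carbonic anhydrase Car9 (0.19, adjusted p = 0.531) were not called. The member that fell was Vegfa, the endothelial growth factor, which type 1 cells make in quantity and which also stands in the type 1 list. It read 386 and 255 CPM with IgG and 541, 256 and 303 CPM with anti-PD-1 at 4 Gy and ran from 86.03 to 210.3 CPM (median 105) at 8 Gy, with a difference of -1.38 ± 0.26 (SE), adjusted p = 0.00194 (limma). The count of glycolysis rises was 10 without the 2 outlying libraries, and 11 without IgG replicate 1 or 2 at 4 Gy.

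The core of the hypoxia response element, ACGTG on either strand, was present in 54.5% of the 33 RefSeq promoter windows of these genes and in 19.6% of all 32851. Windows were available for 24 of the 25 genes, of which 17 held it, beside 21.8% of all genes with a window. The letters were present in 11 of the 16 that rose and had a window, a share close to that of the list. Vegfa, which fell, held them too. Hk2, the inducible hexokinase that traps glucose in the cell, is shown as a gene that rose and holds the letters (chr6:82774455-82774704, GRCm38.p6, minus strand, the 250 bases before the start, ACGTG matches on either strand in capitals).
Hk2: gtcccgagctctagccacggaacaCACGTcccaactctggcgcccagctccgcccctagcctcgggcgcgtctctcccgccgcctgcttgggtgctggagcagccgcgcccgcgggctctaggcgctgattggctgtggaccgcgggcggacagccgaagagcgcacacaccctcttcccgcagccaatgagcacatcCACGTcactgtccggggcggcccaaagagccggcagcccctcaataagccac
The window held 2 matches. Hk2 read 82.6 and 75.4 CPM with IgG and 70.4, 66.1 and 65.9 CPM with anti-PD-1 at 4 Gy. It ran from 101 to 135 CPM (median 105) at 8 Gy, above every 4 Gy library, with a difference of 0.59 ± 0.09 (SE), adjusted p = 0.000741 by limma. The 0 Gy mean was 61.6 ± 11.2 CPM (SD, n = 5).

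Among myeloid genes, single effector genes separated the doses while most list members did not pass the test. Of 18 genes of suppressive myeloid cells 3 rose, Arg1, Slc7a2 and Cd38, and 2 fell, Retnla and Vegfa, shares no higher than the 17% and 17.2% over all genes. Arg1, which depletes arginine and so restrains T cells (chr10:24915221-24927484, minus strand), read 93.8 and 124 CPM with IgG and 152, 74.7 and 132 CPM with anti-PD-1 at 4 Gy. It ran from 275 to 831 CPM (median 383) at 8 Gy, where IgG replicate 1 was the highest library, and every 8 Gy library was above every 4 Gy library. The 0 Gy mean of 135 ± 61.3 CPM (SD, n = 5) was close to the 4 Gy level. The difference was 1.90 ± 0.28 (SE), adjusted p = 0.000514 by limma, and 1.70, adjusted p = 0.0103 without the 2 outlying libraries. The cationic amino acid transporter Slc7a2, which brings arginine into macrophages, rose by 0.73, while Retnla, a product of alternatively activated macrophages, fell by 1.76. The count of rises in this list was 5 without anti-PD-1 replicate 1 at 4 Gy.

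Of 22 inflammatory cytokine genes 5 rose (22.7%, beside 17% of all genes): Il1b, Il1a, Il6, Il33 and Osm. Il33, an alarmin stored in epithelial nuclei and a member of the type 2 list, read 92.1 and 89.2 CPM with IgG and 54.1, 51.8 and 41.03 CPM with anti-PD-1 at 4 Gy. At 8 Gy it ran from 96.96 to 177 CPM (median 128), above every 4 Gy library, with a difference of 0.94 ± 0.13 (SE), adjusted p = 0.000422 by limma. Its 0 Gy mean was 58.6 ± 9.79 CPM (SD, n = 5). The IL-6 family cytokine Osm (0.77) was not called in an additive model or without IgG replicate 1 at 4 Gy (adjusted p = 0.0518 and 0.0511 in limma), nor Il6 (0.92) without the 2 outlying libraries (adjusted p = 0.0509). Without these 2 libraries 3 cytokine genes rose.

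Of 23 monocyte and macrophage genes 6 rose (median 0.30), beside 17% of all genes. They included Msr1, a scavenger receptor (0.97 ± 0.17 (SE), adjusted p = 0.00127 in limma). Of 17 neutrophil genes 7 rose and 2 fell, beside 17% and 17.2% of all genes. Itgam, the integrin chain CD11b, rose by 1.09 and Trem1, an activating receptor, by 1.22, while the falls were Ltf and Lcn2, antimicrobial proteins that epithelium also secretes. Neither count was steady. The macrophage count was 2 and the neutrophil count was 2 without the 2 outlying libraries, and both were 2 without IgG replicate 1 at 4 Gy. The macrophage count was 11 without anti-PD-1 replicate 1 at 4 Gy, and 3 without each of IgG replicate 2 at 8 Gy, anti-PD-1 replicates 2 and 3 at 4 Gy and anti-PD-1 replicates 1 and 2 at 8 Gy. The neutrophil count was 4 without IgG replicate 2 or anti-PD-1 replicate 1 at 8 Gy. The pan-leukocyte gene Ptprc ran from 142 to 361 CPM at 8 Gy and from 125 to 252 CPM at 4 Gy (log2 difference 0.59, adjusted p = 0.072). Srgn, the proteoglycan of leukocyte granules, rose by 1.07.

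T cell checkpoint and regulatory genes rose, and some T cell and cytotoxic genes did. Of the lists, 13 of 21 checkpoint and regulatory T cell genes rose (median 0.61), 8 of 23 T cell genes (median 0.45) and 5 of 20 cytotoxic genes (median 0.34), beside 17% of all genes. Tigit, an inhibitory receptor of T and NK cells, read 7.93 and 5.60 CPM with IgG and 9.12, 11.7 and 13.03 CPM with anti-PD-1 at 4 Gy. At 8 Gy it ran from 13.2 to 23.8 CPM (median 17). All 6 libraries were above all 5 at 4 Gy, though the lowest, anti-PD-1 replicate 3, was nearly level with anti-PD-1 replicate 3 at 4 Gy. The difference was 0.93 ± 0.20 (SE), adjusted p = 0.00427 by limma, and the 0 Gy mean was 17.9 ± 5.44 CPM (SD, n = 5). Tox, a transcription factor of exhausted T cells, rose by 1.25, and Ccr8, a chemokine receptor of tumour regulatory T cells, by 0.88. The inhibitory receptor Ctla4 rose by 0.92 but was not called without the 2 outlying libraries (adjusted p = 0.0535).

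Pdcd1, which encodes PD-1 itself, read 14.9 and 10.1 CPM with IgG and 13.05, 32.1 and 35.8 CPM with anti-PD-1 at 4 Gy and ran from 23.6 to 51.9 CPM (median 33.7) at 8 Gy. The groups overlapped through anti-PD-1 replicates 2 and 3 at 4 Gy. Its difference of 0.91 ± 0.32 (SE), adjusted p = 0.0402 was not called in 10 of 29 alternatives, with an adjusted p of up to 0.147 in limma. Among them were those without IgG replicate 1 or 2 at 4 Gy, IgG replicate 2 or 3 at 8 Gy, anti-PD-1 replicate 1 at 4 Gy and anti-PD-1 replicate 1 or 2 at 8 Gy. Gzmk, a granzyme of effector memory CD8 T cells, rose by 1.56 and the chemokine receptor Cxcr6, found on tissue T cells, by 1.36. The costimulatory receptor Cd28 (1.11) was not called without the 2 outlying libraries (adjusted p = 0.127). Cd4 gave 0.32 (adjusted p = 0.243) and Ifng 0.30 ± 0.43 (adjusted p = 0.605).

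The lymphocyte counts depended on few libraries. Without the 2 outlying libraries the checkpoint count was 5, the cytotoxic count 1 and the T cell count 0 in limma (8 T cell genes higher at an unadjusted p under 0.05), beside 2.57% of all genes. The checkpoint count was 7 and 8 without IgG replicates 1 and 2 at 4 Gy. The T cell count was 2 without either of these or without anti-PD-1 replicate 2 at 8 Gy, 3 without IgG replicate 2 or anti-PD-1 replicate 1 at 8 Gy or anti-PD-1 replicate 2 or 3 at 4 Gy, and 5 without IgG replicate 1 at 8 Gy. The cytotoxic count was 1 without IgG replicate 2 at 4 Gy, 3 without IgG replicate 2 at 8 Gy or anti-PD-1 replicate 2 at 4 Gy, and 2 without anti-PD-1 replicate 1 or 2 at 8 Gy. Anti-PD-1 replicate 3 was the lowest 8 Gy library for 59 of the 64 lymphocyte genes, and IgG replicate 2 the lowest 4 Gy library for 38. T cell genes summed to 479 to 983 CPM at 8 Gy and 452 to 766 CPM at 4 Gy.

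Interferon and antigen presentation genes showed few differences between the doses. Of 77 such genes 4 rose and 2 fell, a median of 0.07, beside 0.06 for all genes tested. In the type I interferon list of 30 genes, the sensor Ifih1 (0.59), Ifit2 (0.70) and Trim30a (0.82) rose, while Mx2 (-0.56) and Stat2 (-0.47) fell. In the interferon gamma and MHC class I list of 28, the GTPase Irgm1 rose by 0.47. Of 19 MHC class II and dendritic cell genes 0 were called by limma, and 0 had an unadjusted p under 0.05. Isg15, an interferon-induced ubiquitin-like modifier, averaged 11.8 ± 6.86 CPM (SD, n = 5) at 0 Gy. It read 42.3 and 53.4 CPM with IgG and 47.7, 48.4 and 57.2 CPM with anti-PD-1 at 4 Gy and ran from 32.9 to 63.4 CPM (median 51.9) at 8 Gy, with a difference of -0.03 ± 0.26 (SE), adjusted p = 0.93 (limma). Both irradiated groups overlapped and stood above the 0 Gy mean. Cd274, the gene of PD-L1, a ligand of PD-1, gave 0.21 ± 0.13 (SE), adjusted p = 0.241. The call of Mx2 was lost in 20 of 29 alternatives and that of Irgm1 in 9. The type I falls numbered 0 in 10 of the 16 sets without 1 library (without IgG replicate 1 at 0 Gy, either IgG library at 4 Gy, any IgG library at 8 Gy, anti-PD-1 replicate 1 or 3 at 4 Gy, or anti-PD-1 replicate 1 or 3 at 8 Gy) and 5 without IgG replicate 2 at 0 Gy. Leaving out the 2 outlying libraries left 0 of the 77 called (limma; 5 higher and 5 lower at an unadjusted p under 0.05). The type I count of rises was 0 without IgG replicate 1 at 4 Gy, IgG replicate 2 or 3 at 8 Gy, anti-PD-1 replicate 2 or 3 at 4 Gy or anti-PD-1 replicate 1 at 8 Gy, 1 without IgG replicate 2 at 4 Gy and 6 without anti-PD-1 replicate 1 at 4 Gy. Of 19 B and plasma cell genes 0 were called in limma, and 0 had an unadjusted p under 0.05.

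Lung genes fell with either antibody. List medians differed between IgG and anti-PD-1 for falling and rising lists alike, and these gaps were not tested as lists. Of the 86 epithelial genes, 52 were called lower with IgG, where 5.94% of all genes were, and 65 with anti-PD-1, where 17.5% were. Their medians were -2.03 and -1.73, and the log2 difference was negative for 84 and 83 of them. Endothelial genes had medians of -1.55 and -2.06. Mitosis genes had a positive difference in 31 of 32 with each antibody. With IgG 0 were called higher by limma (4 at an unadjusted p under 0.05) and with anti-PD-1 21 were, against 1.64% and 24.4% of all genes, and their medians were 0.24 and 0.69. T cell genes had a median of 0.89 with IgG and 0.06 with anti-PD-1, and type 1 cell genes one of -2.51 and -1.59. Checkpoint genes had 5 of 21 called higher with IgG and 3 with anti-PD-1, beside 1.64% and 24.4% of all genes. The checkpoint medians were 0.70 and 0.53. Red cell genes had medians of 1.15 and -0.46, immediate early genes 0.74 and -0.28, and B and plasma cell genes 0.50 and -0.48. The part of these in the T cell medians was not tested.

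**Figure D4:**
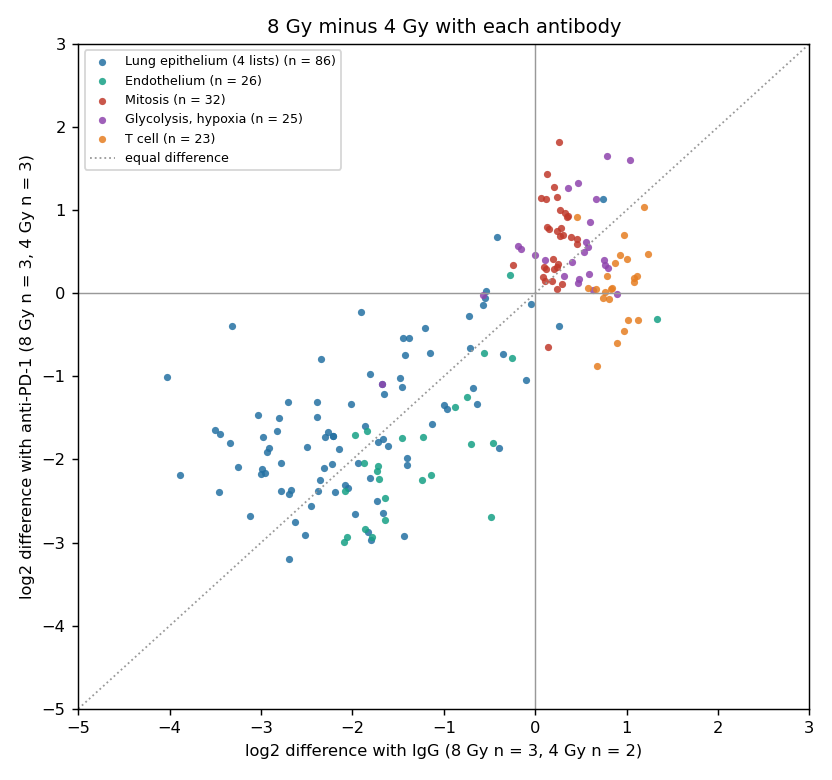
Log2 difference between 8 and 4 Gy with IgG (horizontal axis) and with anti-PD-1 (vertical axis), 1 dot a gene, for lung epithelium (86 genes), endothelium (26), mitosis (32), glycolysis (25) and T cell (23) lists, with a dotted line where both are equal. Nearly all epithelial and endothelial genes lie in the lower left part, mitosis genes mostly above the line and T cell genes mostly below it.

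The difference between the antibodies was tested as an interaction. Of 17546 genes 0 were called by limma (0%), with a smallest adjusted p of 0.0604, and 4801 had an unadjusted p under 0.05 (27.4%). The median interaction over all genes was 0.12, and it was -0.01 after quantile normalization and -0.04 with library medians set equal. Cdkn1a differed by 0.45 with IgG and -0.82 with anti-PD-1 (interaction adjusted p = 0.0604). Il1b, the inflammasome cytokine, read 29.8 and 37.7 CPM with IgG and 50.1, 36.1 and 47.7 CPM with anti-PD-1 at 4 Gy. At 8 Gy it read 132, 165 and 158 CPM with IgG and 45.05, 59.7 and 58.03 CPM with anti-PD-1. With IgG the doses were far apart and with anti-PD-1 they overlapped, for differences of 2.16 and 0.28 (interaction adjusted p = 0.0604 in limma). Neither interaction passed the threshold. The interaction count was 1231 and 1540 without IgG replicates 2 and 3 at 0 Gy, and 3385 without anti-PD-1 replicate 1 at 4 Gy. Within anti-PD-1, 7340 genes were called between the doses (41.8%), and 0 without the 2 outlying libraries (limma; 3473 at an unadjusted p under 0.05). Within IgG 1330 were called (7.58%).

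**Figure D5:**
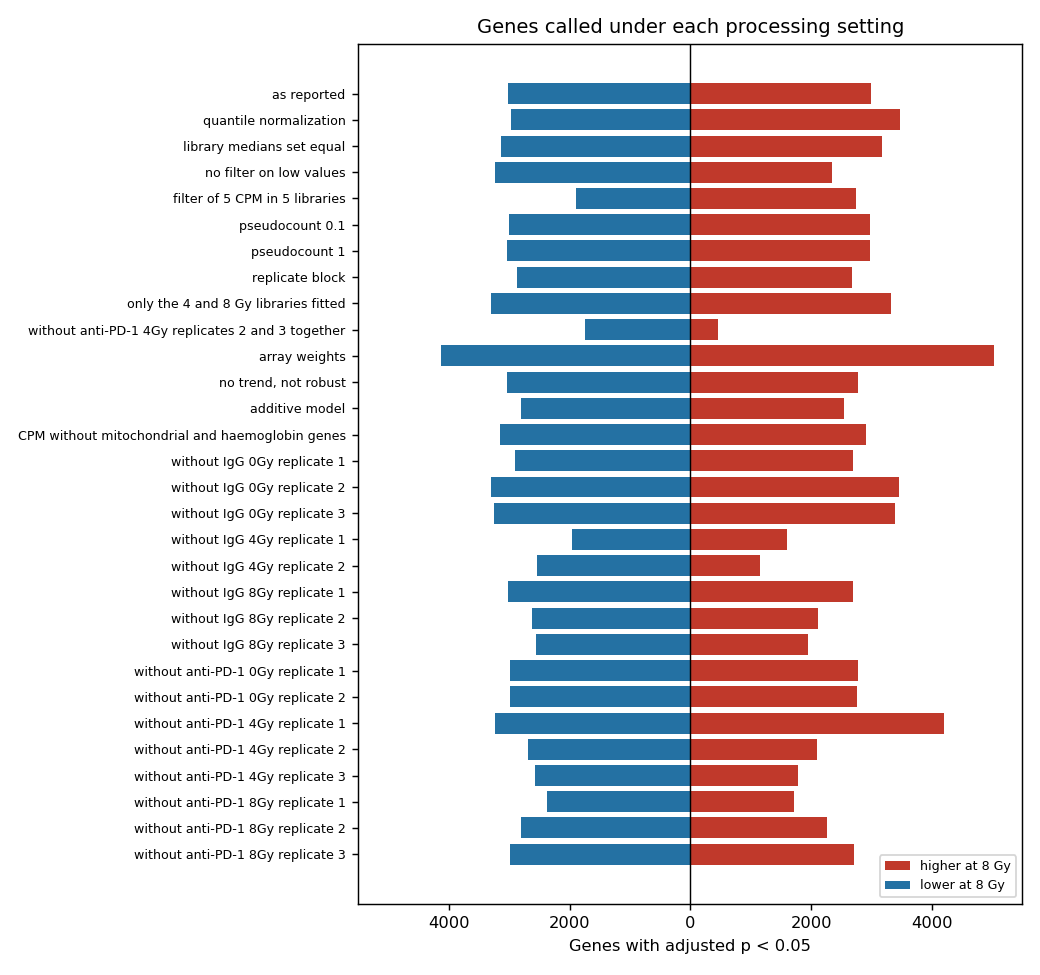
Number of genes higher (right) and lower (left) at 8 Gy under each processing setting, with the reported setting first. The count of rises spans a wider range than the count of falls, and without the 2 outlying libraries it drops from 2988 to 451, while falls go from 3023 to 1749.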

How the data were processed

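The data are 1 table of gene expression with 16 libraries from mouse lungs, 2 or 3 in each of 6 groups of dose and antibody. The values are CPM (counts scaled to library size) that the authors computed and deposited. Per the submitters' processing notes, STAR and Partek were used with the mm10 build. The sources used here do not give the versions, annotation, counting or strand settings. The deposited table lists 30095 genes, with 0.0001 added to every CPM value, so that a gene without reads is listed at 0.0001. CPM are shares of a library, so a rise of 1 tissue's RNA lowers the CPM of the others. The steps between low values gave whole reads for 57.3 to 63.2% of values (tolerance 0.02), so reads were not recovered and no count model was run. Of 25 symbols turned into dates, 23 were restored. Positions are from GENCODE M21 (mm10).

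The fit covered the 17546 genes that reached 1 CPM in 2 or more libraries, on log2(CPM + 0.5), by limma 3.58.1 (R 4.3.3) (empirical Bayes with trend and robust options, 6 group means, 10 residual degrees of freedom). The contrast was the mean of the 8 Gy minus 4 Gy differences within IgG and within anti-PD-1. The interaction was their difference. Adjustment was by Benjamini-Hochberg over all genes tested, with a threshold of 0.05. A fold on this scale understates the change of low genes. Library quantities were compared by exact permutation of dose within antibody. Gene lists (43, with 793 of 795 symbols present) were described by counts and medians without a set test. The members and lists were chosen with earlier results of these data known. Genes were named by this rule: called genes with a mean log2 level of at least 1, the same sign within each antibody and an informative symbol, namely the 15 largest rises, the 15 largest falls and the 5 lowest p each way, the called members of every list, at most 4, taken by p, and 15 genes always named. Nkx2-1, Sftpb, Scgb3a2, Kdr, Hopx, Eln, Col3a1, Top2a, Gdf15, Bax, Mdm2, Ldha, Slc2a1, Car9, Ptprc, Cd4, the 2 construct rows and list members given by a log2 difference alone were chosen after their values were seen. On simulated data with 50 of 17546 genes changed at each size, the contrast recovered 60% of 1.5-fold, 76% of 2-fold, 98% of 4-fold and 96% of 8-fold changes with 11 false calls. The interaction recovered 2, 28, 74 and 96% with 4 false calls. Promoters and their motifs came from RefSeq (GRCm38.p6). Python 3.11.15, pandas 2.3.3, numpy 2.4.6, scipy 1.17.1 and matplotlib 3.10.9 were used. Alternatives covered scaling, filters, pseudocounts, the model, library weights and leaving out libraries.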

Additional observations from a re-analysis of the deposited data

Results flagged for a closer look

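In 38 groups of libraries, from 15 genes and 4 library quantities, 3 had 1 library far from the rest, where chance gives about 1 in 20 groups. Arg1 read 830.7 CPM in IgG replicate 1 at 8 Gy, against 275.2 to 456.3 CPM in the other 5 libraries at that dose. Cd274 read 111.6 CPM in anti-PD-1 replicate 3 at 4 Gy, against 74.08 to 78.69 CPM in the other 4, and this library is 1 of the 2 that stand apart. The value of 1 read was 0.02981 CPM in anti-PD-1 replicate 3 at 8 Gy, against 0.01725 to 0.02156 CPM in the other 5, so it was the shallowest 8 Gy library.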

How the results depend on the processing

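Without the 2 outlying libraries 2200 genes were called, 451 higher and 1749 lower. A filter of 5 CPM in 5 libraries left 1896 lower among fewer genes tested. Array weights (estimated gene by gene, a method chosen after seeing the data) gave 9164 called, 5036 of them higher, and 5554 for the interaction, and fitting only the 4 and 8 Gy libraries gave 1535 for the interaction. The cause of these moves was not tested. Leaving out 1 library gave 3570 to 7431 called, 1158 to 4200 higher, 1966 to 3296 lower and 0 to 3385 for the interaction. The total was 3570 and 3692 without IgG replicates 1 and 2 at 4 Gy, each of which leaves 1 library in its group. The interaction count was 1231 and 1540 without IgG replicates 2 and 3 at 0 Gy. Of 188 named genes called, 109 were called in all 29 alternatives and another 14 in the 28 that tested them, 128 were called without the 2 outlying libraries, and 0 changed sign. Of 26 list counts of 5 or more, 16 moved by over 1.5 times in some alternative.

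With the replicate block 5543 genes were called (2676 higher, 2867 lower) and 0 for the interaction. Same-numbered libraries had correlations of -0.329 to 0.308 in their deviations, with 5 of 15 pairs over 0.1. Deviations from a group mean sum to 0 within each group, which by itself ties these correlations to each other in opposite signs. The correlations therefore cannot decide whether the numbers pair the libraries.

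Genes that were not called changed sign near 0. Without the 2 outlying libraries Isg15 was 0.01329, RFP -0.1175 and Col3a1 0.1756, and with array weights RFP was -0.01369 and Mdm2 0.09306. Leaving out 1 library gave -0.004473 to 0.6165 for Ifng, -0.1322 to 0.04969 for Isg15, -0.1425 to 0.1734 for RFP, -0.07182 to 0.05263 for Mdm2 and -0.3018 to 0.02175 for Col3a1. Leaving out 1 library moved the 8 Gy minus 4 Gy difference from -0.5183 to 0.5534 percentage points for mitochondrial share, from -0.09175 to 0.2704 points for haemoglobin share and from -661.3 to 236.2 for genes without reads. Leaving out the 2 outlying libraries, the last was 939.2 (exact permutation p = 0.05) and the value of 1 read differed by 0.003348 CPM (exact permutation p = 0.375). Genes that did not reach 1 CPM were not tested, and the part of depth in the calls was not tested.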

Other observations

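Part of the clock output genes fell at 8 Gy. Over all genes 17.2% fell and 17% rose, and the 17.6% of this list that rose was close to that share. Of 17 circadian and glucocorticoid genes 7 fell, among them the PAR-domain factors Dbp (-1.27), Tef (-1.16) and Hlf (-0.81) and the period genes Per2 (-0.81) and Per3 (-1.75), and 3 rose, Arntl (0.36), Clock (0.50) and Fkbp5 (0.34). Their median was -0.05 with IgG and -0.85 with anti-PD-1, and 2 and 10 of them were called lower within each, against 5.94% and 17.5% of all genes. The difference between the antibodies was not called for any of the 17 by limma (7 at an unadjusted p under 0.05). The falls numbered 4 without the 2 outlying libraries or without anti-PD-1 replicate 3 at 4 Gy, and 3 without IgG replicate 1 at 4 Gy. The rises numbered 0 without the 2 outlying libraries (limma, 1 higher at an unadjusted p under 0.05), and 0 or 1 without IgG replicate 1 or 2 at 4 Gy, IgG replicate 2 or 3 at 8 Gy, anti-PD-1 replicate 2 or 3 at 4 Gy or anti-PD-1 replicate 1 or 3 at 8 Gy. The labels give the time of sampling only as a range after irradiation.

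Detoxification genes of the NRF2 list were split. The counts here stand beside 17.2% of all genes lower and 17% higher. Gsta3 (-2.39), Aox3 (-1.83), Aox1 (-1.17), Gstm1 (-0.98) and Cbr3 (-0.90) fell, 5 of 14 tested, and the count of 5 held in all alternatives run. Gclm (0.42), Txnrd1 (0.26) and G6pdx (0.23), which supply glutathione, thioredoxin and NADPH, rose. The rises numbered 1 without IgG replicate 1 or 2 at 4 Gy and 0 without the 2 outlying libraries (limma, 2 higher at an unadjusted p under 0.05). Of 6 mast cell and basophil genes 3 fell, Gata2 (-1.79), Kit (-1.07) and the mast cell protease Cma1 (-0.59), and 1 fell without IgG replicate 1 or 2 at 4 Gy.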
